A study of Mus musculus with 6 samples.

Results

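The interferon-stimulated genes outside the major histocompatibility complex (MHC) described here are 36 genes, taken as a list of named receptors, transcription factors, sensors and effectors of the interferon response with none of the MHC genes themselves. They were measured by 84 probes, of which 74 were bright enough to test, so that 34 of the 36 genes could be compared between genotypes, among 18072 named genes with a tested probe. The Nrf2 knockout group was 3 samples of prefrontal cortex, and the wild type group was another 3. All came from males of the outbred ICR stock at 3 to 4 months of age. Total RNA of each sample was hybridised alone to 1 Agilent array with the dye Cy3. Which part of Nfe2l2, the gene that encodes Nrf2, was deleted is not in the labels, and they do not say that the samples of a genotype were different animals. A p-value here therefore reflects only how far these samples scatter, and that scatter may be technical.

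Type I interferons are secreted when a cell detects viral or misplaced nucleic acid. They bind the receptor made of IFNAR1 and IFNAR2, whose kinases activate STAT2. It joins IRF9 in a complex that binds interferon-stimulated response elements in promoters and switches on antiviral genes, while IRF1 serves the response to interferon gamma. In brain, microglia, macrophages of the borders, vessels, astrocytes and neurons can all express such genes, and a low tonic level is present without infection. Nrf2 activates antioxidant and detoxification genes, and in human cells it has been reported to lower the DNA-sensing adaptor STING.

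The response element sought was a pair of GAAA copies with any 2 bases between them, on either strand, in the 250 bases before and 50 after each start site that RefSeq gives on build GRCm38.p6. Matches could overlap each other and those of other motifs. A promoter was in that table for 28 of the 36 genes, and 15 of the 28 (53.6%) held a match, against 3.99% of 27025 genes. The stretches shown are those of the 5 genes that both held a match and had no overlap between the genotypes, with Isg15, which has 3 overlapping matches, beside them. Each is on the strand of its gene, with the matches in capitals. A pair of TTTC copies is the same element on the other strand.
Ifit1: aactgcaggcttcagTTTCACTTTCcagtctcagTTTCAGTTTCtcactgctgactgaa
Ifit3: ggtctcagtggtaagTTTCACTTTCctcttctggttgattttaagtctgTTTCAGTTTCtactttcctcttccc
Gbp2: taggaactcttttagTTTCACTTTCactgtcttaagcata
Trim30a: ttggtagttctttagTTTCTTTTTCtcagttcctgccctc
B2m: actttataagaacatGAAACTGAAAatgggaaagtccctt
Isg15: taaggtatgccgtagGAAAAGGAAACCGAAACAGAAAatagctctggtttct

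These stretches lie at chr19:34640770-34640828 (plus strand) for Ifit1, chr19:34583358-34583431 (plus) for Ifit3 and chr3:142620589-142620628 (plus) for Gbp2. Those of Trim30a, B2m and Isg15 lie at chr7:104465205-104465244 (minus), chr2:122147533-122147572 (plus) and chr4:156200860-156200911 (minus). All 6 are upstream of a start in that table. For Ifit3 this is a later start, so that its stretch lies within the whole span that RefSeq gives for the gene. The core of the antioxidant response element that Nrf2 binds, TGACNNNGC, was in 4 of the 28 promoters (14.3%) and in 14% of all genes, and the gamma-activated site TTCNNNGAA in 8 (28.6%) and in 9.55%. A match is a description of letters, not a bound site.

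The probes of Nfe2l2 checked the labels. At the coding probe that was well above background on every array, its log2 signal was −3.74, −3.79 and −3.46 in the knockout against 0.49, 0.39 and 0.35 in wild type (log2 fold change −4.08, SE 0.12, limma adjusted p = 6.13e-04). Another pair of coding probes was not well above background in any knockout and was at least 81.5-fold and at least 65.6-fold lower (adjusted p = 0.00907 and 4.79e-06). These bounds set the wild type mean against the lowest signal called well above background. A probe for a non-coding transcript of the gene measured −0.345 (adjusted p = 0.393). Slide was not balanced: the 3 wild types and knockout 1 were on slide 1, and knockouts 2 and 3 were on slide 2. Limma called 10 of 105924 tested probes (0.00944%), and with 1 probe per gene 3 of 18072 genes (0.0166%). Levels here are log2 of the processed signal minus the array's 75th percentile, which was 245 to 269 in the knockout and 278 to 280.3 in wild type. The levels of different probes are not comparable.

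No interferon-stimulated gene passed the test, and most measured somewhat lower in the knockout. Limma called 0 of the 34 genes (adjusted p 0.307 to 0.991), against 0.0166% of all genes. At an unadjusted p under 0.05 there were 7, all lower in the knockout, which is 20.6% of the 34 against 9.46% of all genes on the lower side. On the higher side there were none, against 3.03% of all genes. All 3 knockout values lay below all 3 wild type values for 8 genes (23.5%), against 12.8% of all genes, and above them for 0, against 6.57%. In either direction these shares were 23.5% of the 34 and 19.4% of all genes. The log2 fold change was below 0 for 26 of the 34 (76.5%) and for 51.3% of all genes, with a median of −0.14 against −0.0051. In bulk tissue, fewer cells of a type and less RNA per cell cannot be told apart.

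The difference between genotypes was of the size of the differences among the wild types. For each gene, each array was set against the wild type mean of the same probe. The median of these differences over the 34 genes was −0.12, −0.24 and −0.20 in knockouts 1, 2 and 3, against 0.17, −0.011 and −0.19 in wild types 1, 2 and 3. Wild type 3 thus lay within the range of the knockouts, and wild type 1 stood above the other 5 arrays. Over all genes the same medians were −0.058, 0.041 and 0.0085 in the knockouts and 0.0090, −0.033 and 0.026 in the wild types. Wild type 1 was the highest of the 6 arrays for 21 of the 34 genes (61.8%), against 18.5% of the 18008 named genes with a value on every array. The scanner software flagged 186 outlier probes on it and 13 to 36 on each other array. The median SD between arrays was 0.15 in the knockout and 0.25 in wild type for these genes, and 0.13 in the knockout and 0.11 in wild type for all genes. Without wild type 1 the median log2 fold change was −0.061, with 22 of 34 genes below 0 (64.7%, and 51.3% of all genes). The groups then did not overlap for 9 genes on the lower and 1 on the higher side, 29.4% of the 34 against 33.9% of all genes. Without wild type 3 the median was −0.24, with 26 of 34 below 0 (76.5%, and 47.7% of all genes). In that setting 15 genes on the lower and 1 on the higher side had no overlap, 47.1% against 27.7% of all genes. The part of wild type 1 in the results was otherwise not tested.

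**Figure D1:**
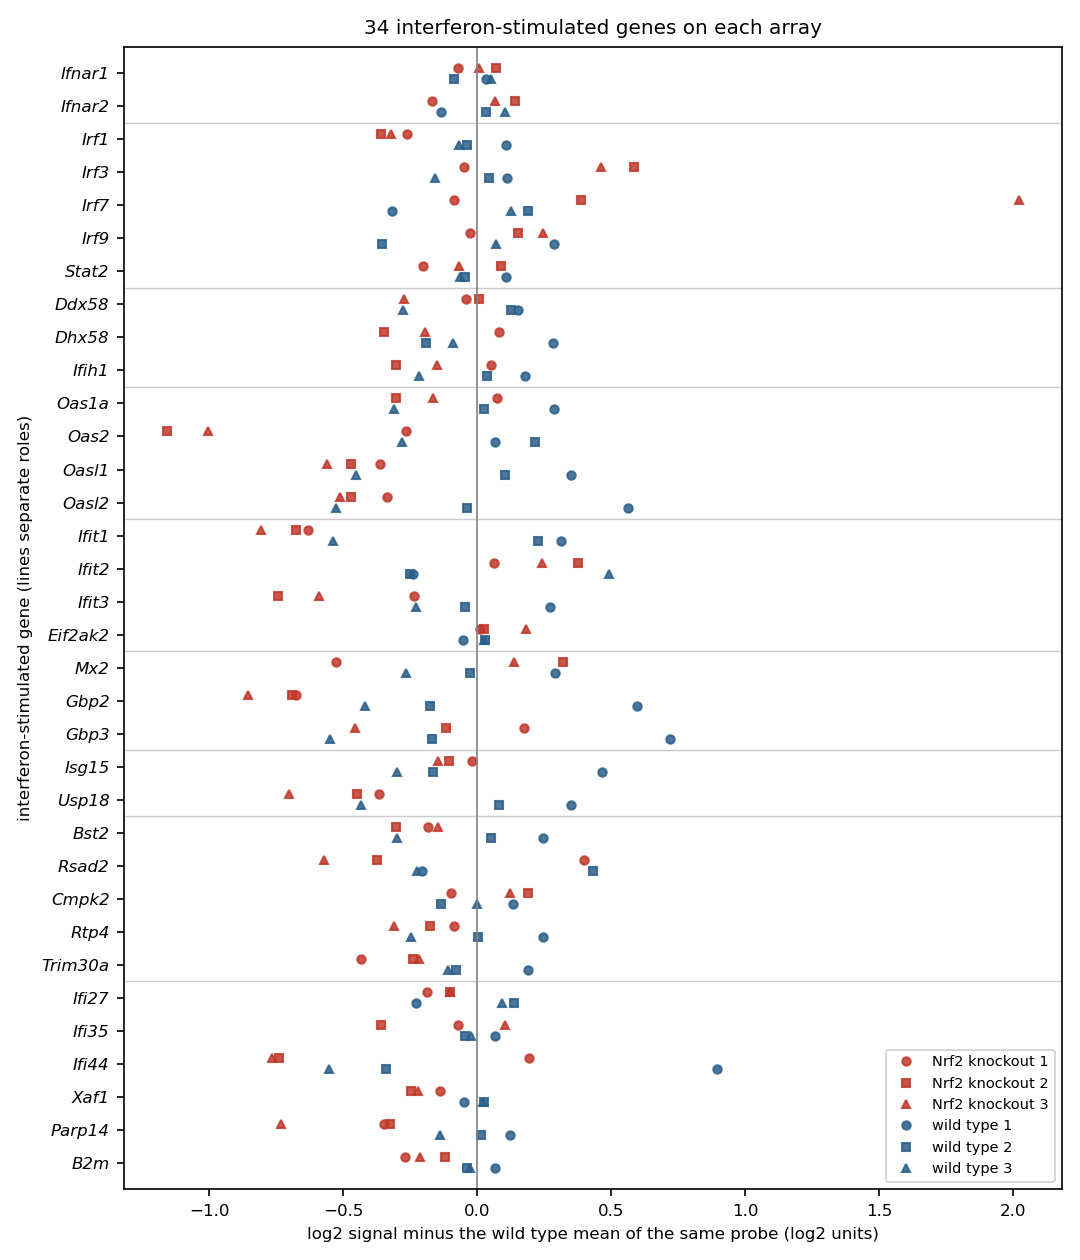
Log2 signal of the 34 genes on each array, as the difference from the wild type mean of the same probe (x axis, log2 units), 1 row per gene, grouped by role, with the knockout above the wild type within a row. Wild type 1 (blue circle) is the highest of the 6 arrays in 21 rows, and the knockout lies wholly to the left of the wild type in 8.

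With slide as a block, a fit that rests on knockout 1 against the wild types of the same slide, the median of the 34 genes was −0.12, with 26 again below 0. All genes shifted too, to a median of −0.058 with 65.4% below 0, so the gap between the 34 genes and the rest was smaller there. In that fit limma called 0 of the 34, against 0.00553% of all genes. Trim30a alone had an unadjusted p under 0.05 there, lower in the knockout, against 5.38% of all genes. Among the 8 genes above 0 over all arrays, 6 were below 0 with the block, and 6 genes below 0 over all arrays were above it. Without knockout 1, limma called 2 of the 34, Irf3 higher (adjusted p = 0.0424) and Oas2 lower (0.0166), against 9.05% of all genes. Slide and genotype cannot be told apart in that fit.

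**Figure D2:**
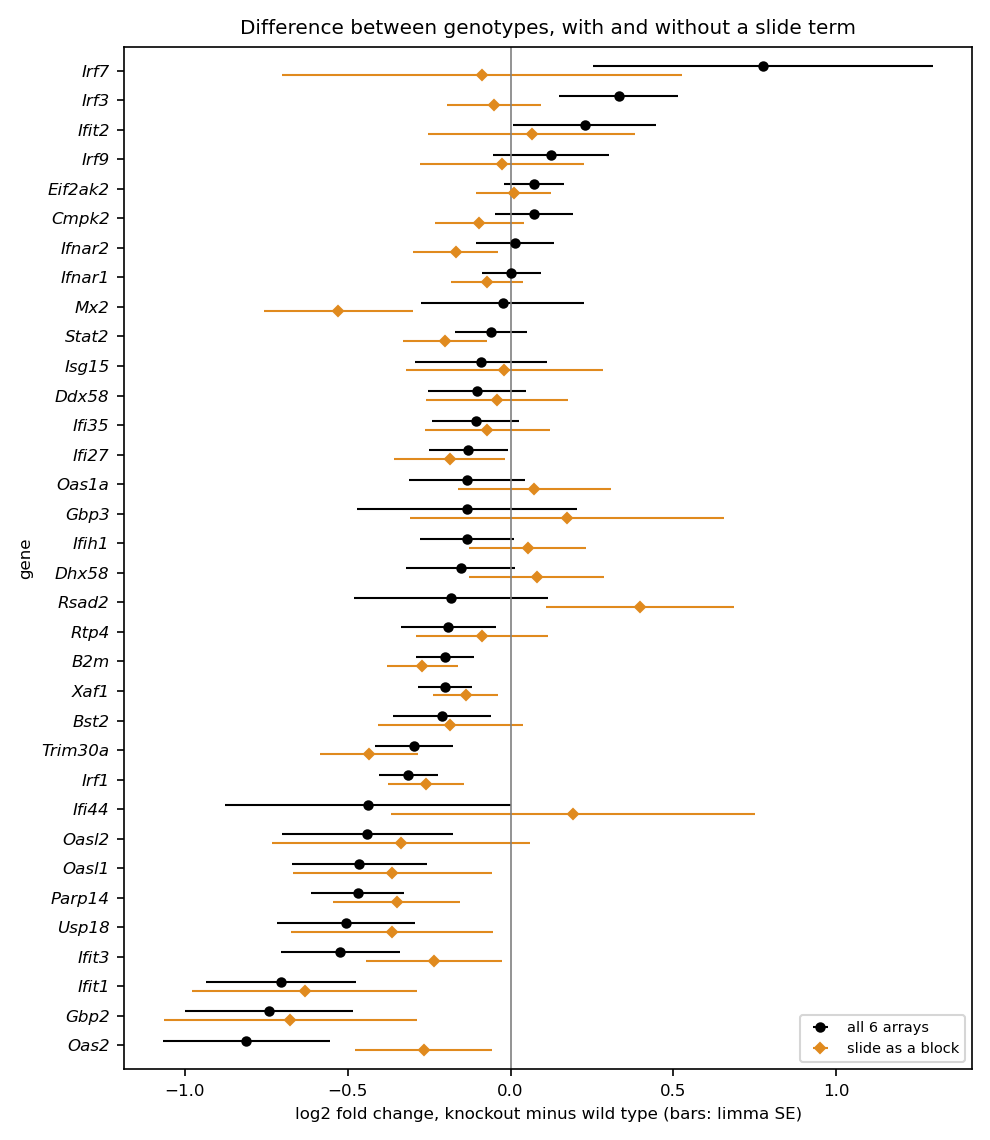
Log2 fold change of each gene, knockout minus wild type, over all 6 arrays (black) and with slide as a block (orange), with bars of 1 limma SE, ordered from the highest at the top. The 8 genes from Ifnar1 upward measured above 0 over all arrays, and the lowest was Oas2 at −0.81, which measured −0.27 with the block.

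The receptor genes showed little difference at their brightest probes. Ifnar1 and Ifnar2, the chains of the type I interferon receptor, measured log2 fold changes of 0.0025 (SE 0.091) and 0.013 (SE 0.12). Their adjusted p-values in limma were 0.991 and 0.962. The other Ifnar1 probe had no overlap, with the knockout higher. It measured 0.27, 0.50 and 0.43 in the knockout against 0.24, 0.25 and 0.22 in wild type, a difference of 0.16 (SE 0.094, limma adjusted p = 0.406).

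Among the transcription factors, Irf1 was the one without overlap. Its protein activates genes of the interferon gamma response and MHC class I genes, and the gene lies on chromosome 11, 53770014 to 53778374 (gene positions are on GRCm38). Its log2 signal was 1.564, 1.467 and 1.503 in the knockout against 1.931, 1.787 and 1.755 in wild type. The knockouts lay close together below the lowest wild type. The log2 fold change was −0.31 (SE 0.091, limma adjusted p = 0.307), and −0.26 with slide as a block. The other probes of Irf1 measured −0.15, also without overlap, and −0.26. Over the 16 alternatives its value ranged from −0.35 to −0.24.

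Irf7, the factor that amplifies interferon production, measured 0.78 (SE 0.52, limma adjusted p = 0.462), and this rested on knockout 3. Its values were −4.27, −3.79 and −2.16 in the knockout against −4.50, −3.99 and −4.06 in wild type, and its other probe measured 0.20. Irf3, which starts interferon transcription after nucleic acid is sensed, was highest on knockouts 2 and 3, the arrays of slide 2, at its brightest probe. It measured 2.75, 3.39 and 3.26 in the knockout against 2.91, 2.85 and 2.65 in wild type, so that knockout 1, on slide 1, lay among the wild types. Its difference was 0.33 (SE 0.18, adjusted p = 0.394) over all arrays and −0.050 with the block. The other probes of Irf3 measured 0.064 and −0.17 over all arrays, and 0.15 and −0.029 without knockout 1. Irf9 and Stat2, partners in the complex that binds the response element, measured 0.12 (SE 0.18) and −0.060 (SE 0.11).

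The cytosolic RNA sensors all measured slightly below 0 over all arrays, but Dhx58 and Ifih1 measured 0.080 and 0.052 with slide as a block. Ddx58 (RIG-I) measured −0.10, Dhx58 (LGP2) −0.15 and Ifih1 (MDA5) −0.13, with adjusted p-values of 0.634 to 0.731 in limma. Another Ifih1 probe had no overlap between genotypes, at −0.35 (adjusted p = 0.327). Ifih1 and B2m lie on chromosome 2, as does Nfe2l2.

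The 2'-5'-oligoadenylate synthetases make the messenger that activates RNase L. Oas2, on chromosome 5, 120730333 to 120749886, had the lowest fold change of all 34 genes. It measured −2.50, −3.39 and −3.23 in the knockout against −2.16, −2.01 and −2.51 in wild type. Knockouts 2 and 3 lay well below the rest, and knockout 1 lay just above wild type 3, so the groups overlapped. The log2 fold change was −0.81 (SE 0.26, limma adjusted p = 0.307). Its other tested probe also measured lower, but it was well above background on only 2 of the 3 knockout arrays, so no size is given for it. With slide as a block the first probe measured −0.27, so the size of the difference depended on the slide 2 arrays. Oasl1 and Oasl2, relatives of these enzymes, measured −0.46 (SE 0.21) and −0.44 (SE 0.26), and Oas1a −0.13 (SE 0.18). Oas3 was not well above background on any of the 6 arrays and was not tested.

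The genes of RNA binding and translation held both directions. Ifit1, whose protein binds viral RNA that lacks a methylated cap, lies on chromosome 19, 34640889 to 34650009, and its promoter has a pair of matches shown above. It measured −1.44, −1.49 and −1.62 in the knockout against −0.50, −0.58 and −1.35 in wild type. The groups did not overlap, but wild type 3 lay next to the knockouts. The log2 fold change was −0.70 (SE 0.23, limma adjusted p = 0.31), −0.63 with slide as a block, and without wild type 3 −0.97.

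Ifit3, a relative of Ifit1, lies on the same chromosome, 34583119 to 34588982. Its brightest probe measured −0.82, −1.32 and −1.17 in the knockout against −0.31, −0.63 and −0.81 in wild type, a difference of −0.52 (SE 0.18, limma adjusted p = 0.312), and −0.23 with the block. Its other probe measured −1.61, −2.18 and −1.98 in the knockout against 0.75, 0.68 and −1.58 in wild type (−1.87, SE 0.62). Wild type 3 again lay with the knockouts there, more than 2 log2 units below the other wild types. Ifit3 and its neighbour Ifit3b are close paralogs, and shared signal between their probes was not tested.

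Ifit2, a further member of the family beside them, went the other way with the same arrays apart. Its brightest probe measured 3.38, 3.69 and 3.56 in the knockout against 3.08, 3.06 and 3.81 in wild type, a difference of 0.23 (SE 0.22, limma adjusted p = 0.593). The other probes of Ifit2 measured 0.54 and 0.65. On all 3 probes wild types 1 and 2 were lowest and wild type 3 lay within or above the knockouts. Eif2ak2, the kinase PKR that halts translation on double-stranded RNA, measured 0.073 (SE 0.091).

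**Figure D3:**
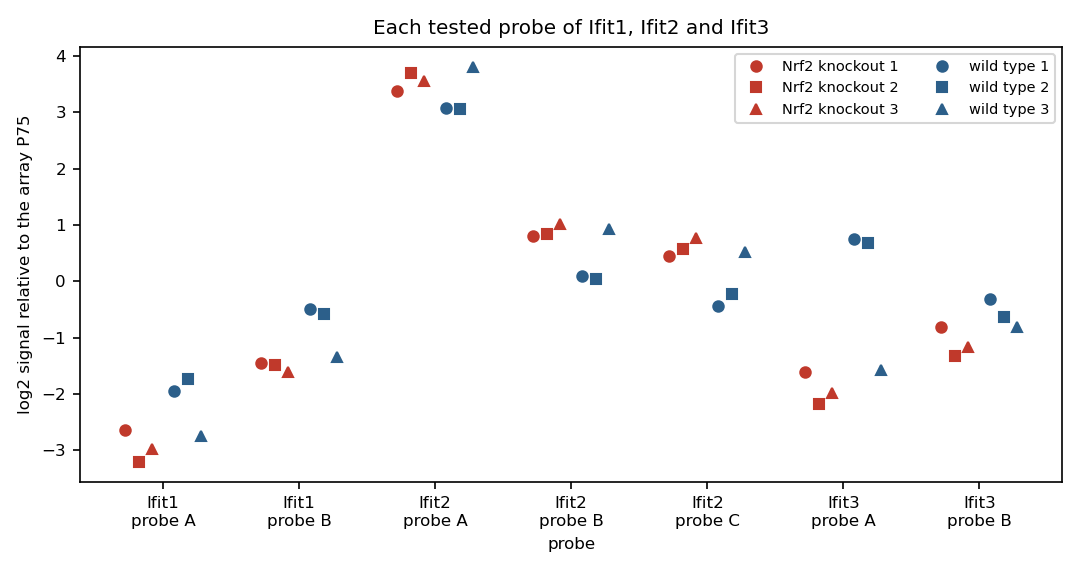
Log2 signal relative to the array's 75th percentile at each of the 7 tested probes of Ifit1, Ifit2 and Ifit3, with the knockout arrays left and the wild type arrays right at each probe. On 6 of the 7 probes wild type 3 (blue triangle) stood more than 0.5 apart from wild types 1 and 2, toward the knockouts. Heights are not comparable between probes.

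The pattern was shared by other genes at that place. Between 34190378 and 34975750 on chromosome 19, within 500000 bases of the Ifit genes, 27 probes of named genes were tested. On 11 of them (40.7%) wild type 3 stood more than 0.5 from both other wild types while those differed from each other by less than 0.5. This held for 1.47% of the 39862 tested probes of named genes. The widest gap was at Ifit1bl1, a relative of Ifit1, which measured −3.62, −4.49 and −3.56 in the knockout against 0.098, 0.065 and −3.75 in wild type. Of the 11 probes, 8 were probes of Ifit1, Ifit2, Ifit3, Ifit3b and Ifit1bl1, and the other 3 were 1 probe each of Stambpl1, Acta2 and Lipa on the side of lower coordinates. No probe of Slc16a12, Pank1 or Kif20b on the other side was among them. The stretch and the rule were chosen after the values had been seen, and no test is attached to them.

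Among the interferon-induced GTPases, Gbp2 was the one without overlap. Guanylate-binding proteins attack vacuoles that hold pathogens, and Gbp2 lies on chromosome 3, 142620663 to 142638008. It measured −0.28, −0.30 and −0.46 in the knockout against 0.99, 0.22 and −0.028 in wild type. The knockouts were close together, and the wild types were spread over 1 log2 unit with wild type 1 on top. The difference was −0.74 (SE 0.26, limma adjusted p = 0.311), −0.68 with slide as a block and, without wild type 1, −0.44. Its other probe measured −0.73 with overlap. Gbp3 and Mx2 measured −0.13 (SE 0.34) and −0.024 (SE 0.25), and Mx2 −0.53 with the block. Mx1, for an inhibitor of influenza virus, was not well above background on any of the 6 arrays. RefSeq lists Mx1 and Mx2 as transcribed pseudogenes in the strain of the reference genome, which is not ICR.

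Of the ISG15 system, a ubiquitin-like modifier and the protease that removes it, neither gene separated the genotypes. Isg15 measured −0.090 (SE 0.20) and Usp18 −0.51 (SE 0.21, limma adjusted p = 0.333). The other probe of Usp18 measured −0.031. With slide as a block these Usp18 probes measured −0.36 and 0.25.

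Among the membrane and antiviral effectors, Trim30a had no overlap. It encodes a ubiquitin ligase of the TRIM family that restrains Toll-like receptor signalling, and it lies on chromosome 7, 104409025 to 104465193. It measured −1.62, −1.43 and −1.40 in the knockout against −1.0, −1.27 and −1.30 in wild type. The gap between the highest knockout and the lowest wild type was small. The difference was −0.30 (SE 0.12, limma adjusted p = 0.328) and −0.43 with slide as a block, and its probes ranged from −0.72 to −0.14. Trim30a has close paralogs beside it, and shared signal was not tested. Cmpk2, a mitochondrial nucleotide kinase, measured 3.71, 4.00 and 3.93 in the knockout against 3.94, 3.68 and 3.81 in wild type, a difference of 0.071 (SE 0.12). These arrays were interleaved. Bst2 (tetherin) measured −0.21 (SE 0.15), Rtp4 −0.19 (SE 0.14) and Rsad2 (viperin) −0.18 (SE 0.30). With the block Rsad2 measured 0.40. Rsad2 had 4 tested probes, of which a pair was well above background on only 2 of 3 arrays of a genotype.

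All 6 of the remaining genes measured below 0 over all arrays, and 3 of them had no overlap. Parp14, a mono-ADP-ribosyltransferase on chromosome 16, 35831892 to 35871518, measured −0.70, −0.68 and −1.09 in the knockout against −0.23, −0.34 and −0.49 in wild type. Every knockout lay below every wild type there and at 1 of its other tested probes. The difference was −0.47 (SE 0.14, limma adjusted p = 0.307), −0.79 and −0.34 at the other probes, and −0.35 with slide as a block.

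Xaf1, a promoter of apoptosis on chromosome 11, 72301461 to 72313733, measured −0.62, −0.74 and −0.71 in the knockout against −0.54, −0.46 and −0.46 in wild type (−0.20, SE 0.084, limma adjusted p = 0.332). The arrays within each genotype were close, and the difference with the block was −0.14. B2m, the light chain that every MHC class I molecule needs, lies outside the MHC on chromosome 2, 122147687 to 122153082. It measured 4.74, 4.89 and 4.80 in the knockout against 5.08, 4.97 and 4.98 in wild type. All 3 of its probes had no overlap, at −0.20 (SE 0.089, limma adjusted p = 0.343), −0.31 and −0.57. With the block they measured −0.27, −0.27 and −0.28 in the same order. Ifi27, a mitochondrial membrane protein gene, measured 4.56, 4.64 and 4.64 in the knockout against 4.52, 4.88 and 4.84 in wild type (−0.13, SE 0.12). Its arrays overlapped through wild type 1. Ifi44 measured −0.44 (SE 0.44), but 0.19 with the block, and Ifi35 measured −0.11 (SE 0.13).

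**Figure D4:**
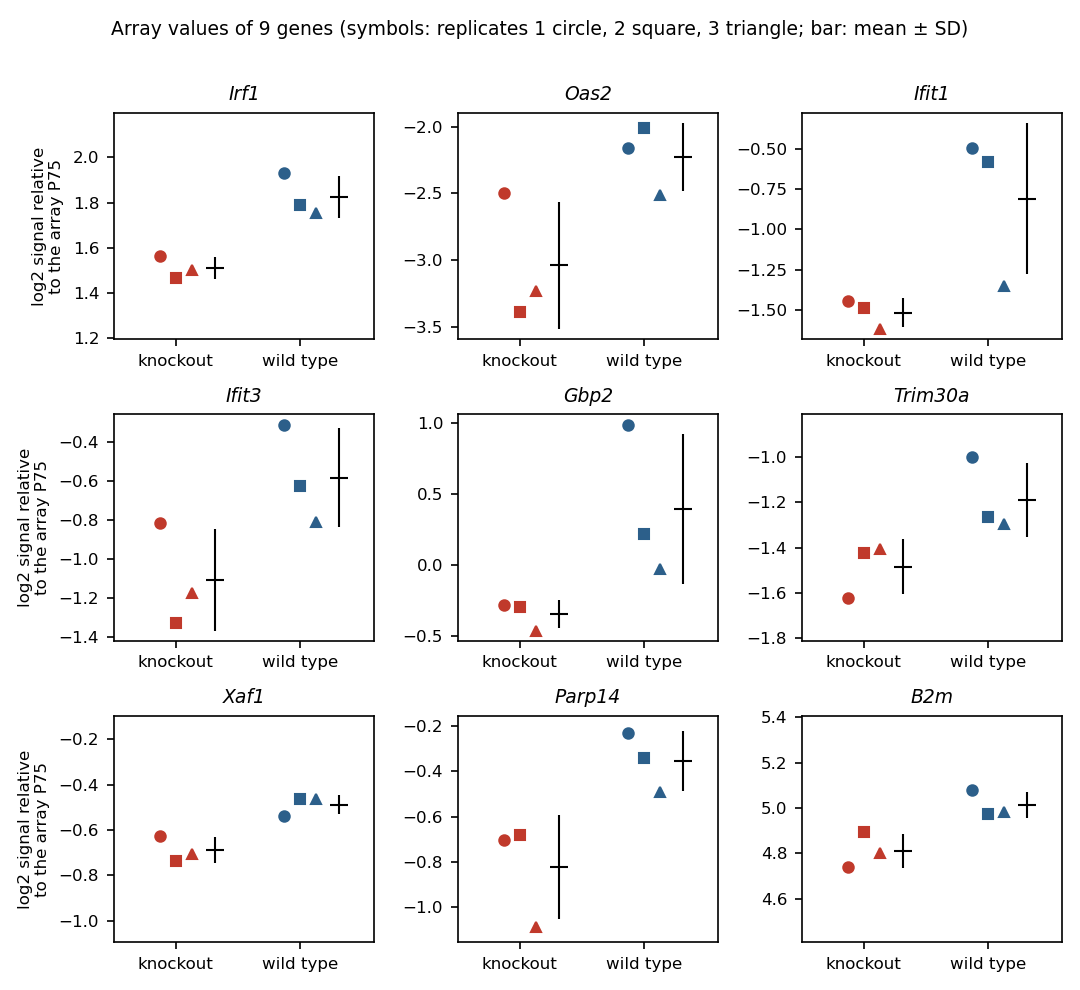
Log2 signal relative to the array's 75th percentile for the 9 genes without overlap between genotypes or with an unadjusted p under 0.05, knockout left and wild type right in each panel, with the mean ± SD (n = 3) beside the points. The y axes differ between panels, and Oas2 is the panel in which the groups overlap.

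The probes of a gene mostly pointed the same way. Of 28 genes with several tested probes, 24 had every probe on the same side of 0, and 4 (Ifnar2, Irf3, Rsad2 and Ifi35) had probes on both sides. For Rsad2 this rested on a probe that was not well above background on wild type 1. By the response element, 13 of the 14 tested genes with a match in the promoter lay below 0, with a median of −0.16, and 6 of the 13 without a match, with a median of 0.0025. With slide as a block these medians were −0.11 and −0.087. By the gamma-activated site, 4 of 8 with a match lay below 0 (median −0.052) and 15 of 19 without one (median −0.18). By the antioxidant element core, 3 of 4 with a match (median −0.31) and 16 of 23 without one (median −0.13) lay below 0. With slide as a block the order turned, with medians of 0.053 and −0.0965. For the gamma-activated site they were −0.0715 and −0.0965 with the block. Among other genes, 57.2% of 533 with an interferon-stimulated response element were below 0 (median −0.035), against 50.6% of 13761 without one (median −0.0021). For the antioxidant element core these were 49.9% of 2264 (median 0.0006) and 51.0% of 12030 (median −0.0041). These are counts with no test, since the genes were chosen with results in view.

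Circular RNAs, closed loops made by back-splicing, were measured from inside 8 of the genes by 16 probes, 14 of them tested. Limma called 0 of the 14, against 0.00289% of 34552 tested circular RNAs. At an unadjusted p under 0.05 there were 4, all lower, against 6.15% of all circular RNAs on the lower side. The groups did not overlap for 4, all lower in the knockout, against 6.82% of all circular RNAs on the lower side. The circular RNA of Ifnar1 on chromosome 16 from 91499856 to 91503527 measured 4.21, 3.64 and 3.56 in the knockout against 4.61, 4.33 and 4.58 in wild type, a difference of −0.70 (SE 0.19, adjusted p = 0.307). Knockout 1 lay nearest to the wild types. A second loop of Ifnar1 from the same start to 91501749 measured −0.45 (SE 0.13), so the pair shares sequence. Another tested loop of Ifnar1, from 91489696 to 91496261, measured −0.085 (SE 0.092) with overlap. The linear Ifnar1 RNA measured 0.0025 at its brightest probe. A loop of Stat2 measured −0.49, while its other 4 tested loops measured 0.076 to 0.22, and a loop of Eif2ak2 measured −0.43. Of the 14, 7 lay above 0 and 7 below, with a median of −0.031, and of 0.015 with slide as a block. Of all tested circular RNAs 64.25% lay above 0, with a median of 0.082, and of 0.038 with the block.

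The rest of the interferon system also measured mostly below 0 without a call. Of 95 further genes, 85 were tested, and limma called 0 of them, with 16 at an unadjusted p under 0.05, all lower in the knockout (9.46% of all genes on that side). The log2 fold change was below 0 for 68 of the 85 (51.3% of all genes), with a median of −0.16, and −0.14 with slide as a block. The groups did not overlap for 27 on the lower side and 1 on the higher side, against 12.8% and 6.57% of all genes. The median differences from the wild type mean were −0.14, −0.12 and −0.18 in the knockouts, against 0.023, 0.010 and −0.058 in the wild types. By this summary all 3 knockouts lay below all 3 wild types.

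The counts without overlap by list stand against the same 12.8% lower and 6.57% higher. Of 9 interferon genes 3 were tested, and Ifnl3, an interferon lambda, measured −0.24 without overlap. Neither Ifnb1 nor Ifna4 was well above background on any array, and Ifng was so on 1 knockout array. Among 17 receptor and signalling genes, 7 had no overlap, all lower, with the transcription factors Irf5 at −0.25 and Irf8 at −0.22. Of 18 sensing and adaptor genes, 5 had none, with the nucleic acid receptors Tlr9 at −0.27 and Tlr7 at −0.22 and the RNA-editing enzyme Adar at −0.18. Among 47 further interferon-stimulated genes the median was −0.24, with 14 lower and 1 higher without overlap. Ifi203, a member of the DNA-binding p200 family, measured −0.99 (SE 0.57), and its knockout 1 was alone at −4.24. The immunity-related GTPases Ifi47 and Igtp measured −0.73 (SE 0.19) and −0.70 (SE 0.25), and the membrane protein gene Ly6e 0.25 (SE 0.11).

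Markers of some other cells also measured lower. All 6 markers of border macrophages, which lie along vessels and meninges, had no overlap and were lower (12.8% of all genes), with Cd163 at −0.78, Lyve1 at −0.76 and Mrc1 at −0.67, a median of −0.66 and of −0.93 with slide as a block. Their summed linear signal, relative to the 75th percentile, was 2.61 to 3.79 in the knockout and 4.55 to 5.58 in wild type. Of 7 T and NK cell markers, 4 had no overlap and were lower, against the same 12.8%. Their median was −0.37, and −0.18 with slide as a block. Their summed signals were 61.4 to 85.6 in the knockout and 98.3 to 106.7 in wild type. Klrb1c had by far the highest signal of the 7, so the sum mostly follows that gene. Knockout 1 was the highest knockout for Cd3d, Klrb1c and Cd3e. The 11 microglia markers had a median of −0.029 with 0 free of overlap, and their summed signal was 167 to 186 in the knockout and 172 to 192 in wild type. Neuron markers summed to 1029 to 1077 in the knockout and 1035 to 1103 in wild type. Of the 8 endothelial markers 4 lay above 0, with a median of −0.0069. Their summed signal was 60.1 to 66.3 in the knockout and 69.7 to 76.6 in wild type. Ly6c1 was the 1 of the 8 without overlap, at −0.36, against 12.8% of all genes on the lower side. It also had the highest signal of the 8, so the sum mostly follows that gene. Of 3 red cell markers, Alas2 and Hba-a1 measured 0.57 and 0.44, without overlap and higher, against 6.57% of all genes. Limma called 0 of the markers. At an unadjusted p under 0.05 on the lower side there were 6 of 6 border macrophage and 4 of 7 T and NK cell markers. So were 2 of 6 choroid plexus, 1 of 8 endothelial, 1 of 6 meningeal fibroblast and 1 of 4 neutrophil markers. The share of all genes on that side was 9.46%. On the higher side there were 2 of 3 red cell markers, against 3.03% of all genes. The part of these cells in the interferon-stimulated genes was not tested.

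**Figure D5:**
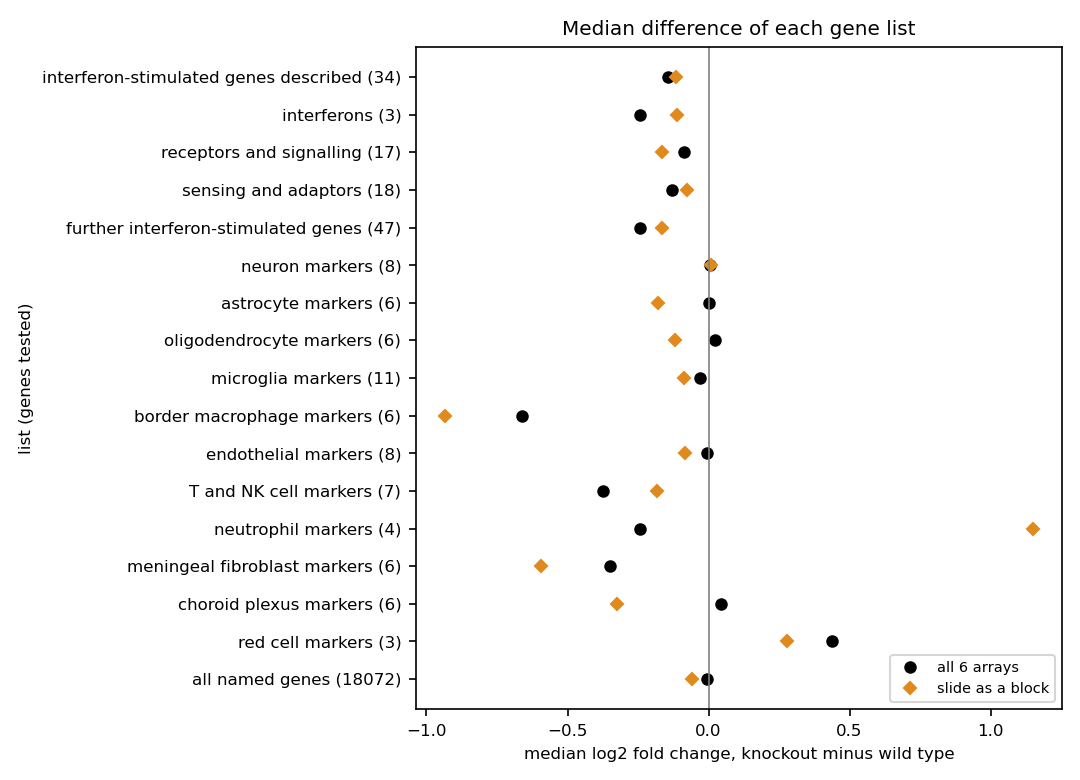
Median log2 fold change, knockout minus wild type, of each gene list over all 6 arrays (black) and with slide as a block (orange), with the number of genes tested in brackets. The 34 genes lie at −0.14 and −0.12, all named genes at −0.0051 and −0.058, and border macrophage markers are lowest at −0.66 and −0.93.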

How the data were processed

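Total RNA of 6 samples was measured on 1 array each. The deposited scanner files hold intensity values that, per the file headers, Agilent Feature Extraction 12.0.3.1 had background-subtracted and detrended, while the submitters' processing notes name version 10.7. The authors' value table matched log2 scanner signals and served as an alternative. Each array's 75th percentile was subtracted here from its log2 processed signals, without control spots or outlier flags. A probe was tested if well above background on all 3 arrays of a genotype, and the brightest tested probe stood for its gene. Symbols came from a RefSeq table for 48048 of 48467 RefSeq probes. The comparison used limma 3.58.1 (R 4.3.3) on all 105924 tested probes, with Benjamini-Hochberg adjustment, a two-sided threshold of 0.05, and errors as SE. On simulated data 77 of 100 shifts of 1.5 log2 units and 95 of 100 of 3 were called. Circular RNA positions were read as GRCm38, since 97.4% of 37852 lay inside a coding gene of it, against 35.9% after a shift of 1 Mb. Replicate numbers did not pair samples. Genes were given by array if without overlap or at an unadjusted p under 0.05, with the 3 of the highest level among the rest (Ifi27, Cmpk2 and Ifit2). Irf3, Irf7 and single probes of other genes were added after their values were seen. The genes and lists were chosen with earlier results of these data known.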

Additional observations from a re-analysis of the deposited data

How the results depend on the processing

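The median log2 fold change of the 34 genes stayed below 0 under all alternatives run, from −0.24 without wild type 3 to −0.061 without wild type 1, and was −0.091 with normexp background correction and −0.20 with the mean of all probes of a gene. Leaving out 1 array at a time gave 0 to 2 called genes among the 34, 8 to 16 without overlap, 0 to 4 called among the other interferon genes, 0 to 3 among the circular RNAs inside the 34, and 5 to 13558 among all tested probes. The highest of these counts came without knockout 1, where slide and genotype cannot be told apart, with Irf3 and Oas2 the 2 called genes. The 16 genes without overlap in that setting were 47.1% of the 34 against 46.5% of all genes. Without wild type 3 there were also 16, against 27.7% of all genes, and without wild type 1 limma called 50 probes. Of all tested probes, 4 passed on slide 1 alone, 4 with probes well above background on all 6 arrays, and 2 with a replicate block. The Nfe2l2 probe missed the threshold with the replicate block, at −4.08 (adjusted p = 0.0519). The replicate numbers share only a number: deviations of same-numbered arrays correlated at −0.013, −0.050 and 0.038, and limma called 0 of the 34 genes with the block (9 on the lower side at an unadjusted p under 0.05). Signals near background, as for Irf7, Oas2 and Oas1a, and 3 arrays per genotype limit what differences could be called.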
